A study of Mus musculus with 10 samples.

Results

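The 550 regions described here are m6A peaks of 3T3-L1 cells that were called during clonal expansion and were still called when rhein was present. In control cells without rhein, they were called neither before nor after clonal expansion. 3T3-L1 is a mouse preadipocyte line that turns into fat cells after induction with a hormone mixture. The series names this line, while the source label reads 3T3-L2. The study measured m6A by MeRIP-seq, which sequences RNA fragments pulled down with an antibody against m6A (IP) beside the fragments before the pull-down (input). There were 5 conditions with 1 IP and 1 input library each, 10 libraries in all. The conditions were DMSO preadipocytes (DMSO Pre), DMSO cells at the mitotic clonal expansion stage (DMSO MCE), DMSO mature adipocytes (DMSO Diff), and rhein-treated cells at the latter 2 stages (rhein MCE and rhein Diff). Rhein was given at 20 μM from day 0 to day 3 and DMSO, its solvent, served as the control. Apart from the undifferentiated Pre cells, every group received the same induction medium. No condition had a replicate, so the spread between cultures is unknown and no p-value is given.

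The regions were chosen by their overlap between the peak lists. A DMSO MCE peak was taken when its span from start to end shared at least 1 base with a rhein MCE peak on the same strand and none with a DMSO Pre or DMSO Diff peak. These peaks are called kept peaks below. They were 550 of the 5128 DMSO MCE peaks (10.7%), and they lay on 440 of the 2965 genes that held any DMSO MCE peak (14.8%). For comparison, 2701 DMSO MCE peaks overlapped none of the other lists named in the rule (MCE-only peaks), and 1108 overlapped rhein MCE and also DMSO Pre or DMSO Diff (shared peaks). Of the 3251 DMSO MCE peaks without a match at another DMSO stage, 16.9% were kept under rhein, with a 95% Wilson interval of 15.7% to 18.2%. Of the 1877 with such a match, 59.0% (56.8% to 61.2%) overlapped a rhein MCE peak. These shares follow from the rule and are given as a description.

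Some properties of the lists bear on all that follows. The rhein MCE and rhein Diff lists held 3069 and 3071 peaks and 3067 of them had identical spans, so the stage of the rhein list cannot be told apart. With the rhein Diff list in its place, 551 peaks were kept, 550 of them the same. The lists carry 1 score per peak and no enrichment or read number, so depth per peak is unknown and a missing peak may be a weak call. The score acted like an adjusted p-value on a negative log2 scale, on which 6.64 stands for 0.01. The score grows with sequencing depth as well as with enrichment, and RNA amount was not measured beside it here. Strand was not a safe guide to the gene in all places, since 47 of the 550 kept peaks (8.55%, 6.49% to 11.2%) overlapped a DMSO MCE peak on the opposite strand, against 5.42% of all DMSO MCE peaks, and for 33 of them the opposite peak was itself kept. These overlaps count whole spans from start to end, introns included, so some of the pairs may share no exonic base. Whether reads were counted by strand is not stated, and where a pair shares exonic bases its reads cannot be told apart. For example, kept peaks of Tmem132a and Slc15a3 had the same span on opposite strands and the same score of 7.01. Both members of such a pair count among the 550. Coordinates are those of GRCm38 (mm10), and genes, exons and transcript parts were taken from GENCODE M21.

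N6-methyladenosine (m6A) is the most abundant internal mark of messenger RNA. It is written by the METTL3-METTL14 complex with adaptor proteins such as WTAP and RBM15B, mostly at adenosines within a DRACH sequence, where H stands for any base but G, R for a purine and D for any base but C, and it is removed by FTO and ALKBH5. It gathers near stop codons and in long exons, and bound reader proteins alter splicing, decay and translation of the transcript. Antibodies against m6A also bind m6Am, a related mark next to the cap at the 5′ end. During mitotic clonal expansion, induced preadipocytes re-enter the cell cycle and turn on immediate-early genes and C/EBP factors before they commit to the adipocyte fate. Rhein is a plant anthraquinone known as an inhibitor of FTO.

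Sequences of selected kept peaks are shown first because the motif and position results rest on such stretches. All are given 5′ to 3′ on the transcript strand, in GRCm38 coordinates, and capitals mark each GGAC, the core of the preferred m6A site. Peaks in coding sequence are shown whole where they are short. Elsewhere 27 bases around the GGAC nearest to the middle of the peak are shown, which may reach past the edge of the peak. Peaks without GGAC that are not shown whole are therefore absent here. The first set is from Irs2 (insulin receptor substrate 2, which passes the insulin signal to PI3K), the gene with most kept peaks, in the order of its transcript. The kept Irs2 peak in the 3′ UTR at chr8:10986731-10986830 holds no GGAC and is left out.
Irs2, CDS, chr8:11007298-11007324, minus strand: aggcggggccgGGACggcaggaggcag
Irs2, CDS, chr8:11006711-11006835, minus strand, whole peak: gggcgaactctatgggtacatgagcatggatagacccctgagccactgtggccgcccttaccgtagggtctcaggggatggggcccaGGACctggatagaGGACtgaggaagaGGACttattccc
Irs2, CDS, chr8:11006611-11006685, minus strand, whole peak: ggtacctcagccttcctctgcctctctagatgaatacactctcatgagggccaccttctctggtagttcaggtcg
Irs2, CDS, chr8:11005836-11005960, minus strand, whole peak: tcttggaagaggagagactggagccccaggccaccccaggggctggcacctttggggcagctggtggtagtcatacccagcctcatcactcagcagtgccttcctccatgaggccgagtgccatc
Irs2, 3′ UTR, chr8:10986345-10986371, minus strand: tccgtgggattGGACttgaagatggat
Irs2, 3′ UTR, chr8:10985186-10985212, minus strand: tggtcaccacaGGACacagatggcata

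Other sets carry results described further on. The first holds 2 components of the m6A machinery, Rbm15b with 3 kept peaks and the demethylase Alkbh5 with 1.
Rbm15b, CDS, chr9:106886047-106886146, minus strand, whole peak: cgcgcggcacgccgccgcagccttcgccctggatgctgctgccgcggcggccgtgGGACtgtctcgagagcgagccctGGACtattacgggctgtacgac
Rbm15b, CDS, chr9:106885172-106885221, minus strand, whole peak: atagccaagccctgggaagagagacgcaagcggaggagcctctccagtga
Rbm15b, CDS, chr9:106885097-106885146, minus strand, whole peak: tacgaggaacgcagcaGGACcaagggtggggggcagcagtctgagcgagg
Alkbh5, CDS, chr11:60538571-60538620, plus strand, whole peak: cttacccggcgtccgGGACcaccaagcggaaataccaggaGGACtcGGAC
The other set holds the kept peak of highest score under rhein (Zfp36l2) and windows of high-scoring 5′ UTR peaks that hold GGAC (Slc35e3, Pcbp1, Ptp4a2). The 5′ UTR peak of Ppp1r9b, with a rhein score of 70.0, holds no GGAC and has no window.
Zfp36l2, CDS, chr17:84186231-84186280, minus strand, whole peak: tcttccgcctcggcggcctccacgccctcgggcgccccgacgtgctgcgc
Slc35e3, 5′ UTR, chr10:117746304-117746330, minus strand: tgtctccggccGGACcgtggagcgggc
Pcbp1, 5′ UTR, chr6:86525951-86525977, minus strand: ccagccgcccaGGACttgaccacgtaa
Ptp4a2, 5′ UTR, chr4:129820398-129820424, plus strand: agcagcaagacGGACtcgtGGACacgc
The whole Zfp36l2 peak and 1 of the 3 Rbm15b peaks hold no GGAC, and the Alkbh5 peak holds 3 within 50 bases.

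The kept peaks had scores from 4.76 to 61.0 in the DMSO MCE list, with a median of 7.97, and the rhein peaks over them had scores from 4.40 to 189.7, with a median of 8.25. The best rhein score was taken where a kept peak met more than 1 rhein peak, which happened for 16. An adjusted p-value of 0.01 was passed by 441 of them in DMSO MCE, by 428 under rhein and by 352 in both lists. They were mostly moderate calls, with 8 among the 100 and 51 among the 500 highest DMSO MCE scores. In the rhein MCE list, 17 of them stood among the top 100 and 117 among the top 500. Across the 550 peaks both scores ran together only weakly, with a Spearman rho of 0.21 over peaks, which are not independent replicates. Both scores also decided which peaks were listed, and the part of this choice in the rho was not tested. The score was higher under rhein for 290 of the 550, at least 3 times higher for 45, and at most 1 part in 3 of the DMSO value for 9.

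**Figure D1:**
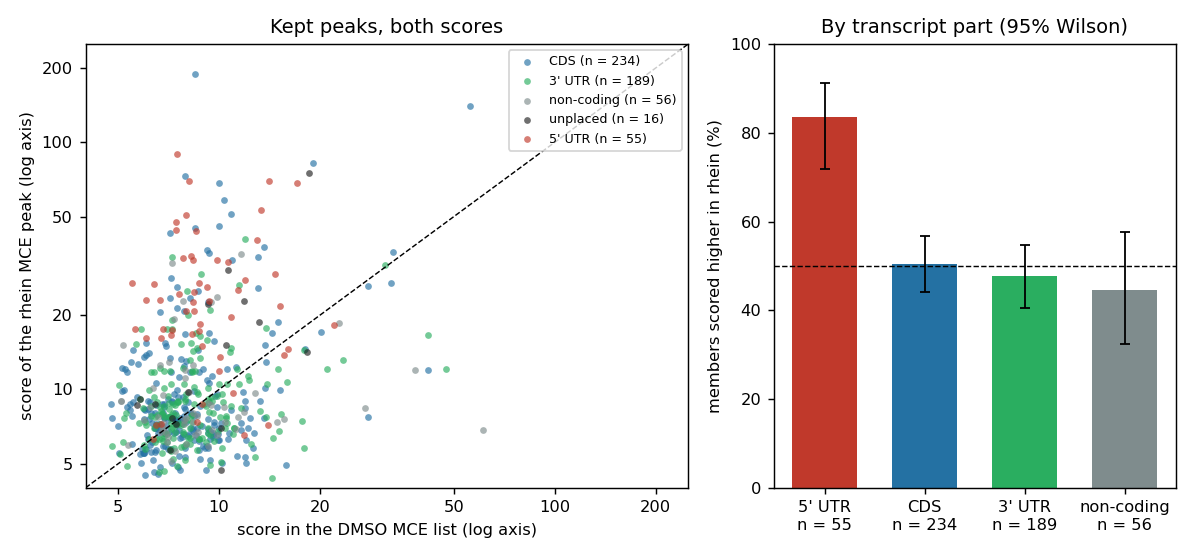
Left, the DMSO MCE score of each of the 550 kept peaks against the score of the rhein MCE peak over it, both on log axes, coloured by transcript part, with the dashed line at equal scores. Right, the percentage of kept peaks with the higher score under rhein by transcript part, with 95% Wilson intervals. The dashed line at 50% guides the eye and is not an expected value. The 5′ UTR stands at 83.6% and the other parts between 44.6% and 50.4%.

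Most kept peaks shared much of their span with rhein peaks, though 217 of the 550 lay wholly under them. The median share of the span covered by rhein peaks was 83.8%, 441 had at least 50% of the span covered, and 64 had an identical span. At the other end, the smallest overlap was 25 bases, the step of the peak caller, as in peaks of Ptn, Hnrnpu, Lgr4, Eif3a and Ptms, and no kept peak shared 10 bases or fewer. In 3 kept peaks, on Ptn, Tpm4 and an unplaced stretch near Ccdc85b, the overlap lay in introns of the spans and no exonic base was shared. Just outside the rule were MCE-only peaks that touched a rhein peak without sharing a base, among them peaks in Cebpb, Hnrnpa2b1, Thbd and Nid1, and 40 MCE-only peaks lay within 25 bases of a rhein peak. Cebpb, which encodes C/EBPβ, an early driver of adipogenesis, shows both sides. Its 5′ UTR peak at chr2:167688915-167688964 was kept, with a score of 7.95 in DMSO MCE and 50.8 under rhein, while its CDS peak at chr2:167689290-167689564, with a score of 18.1, abutted a rhein peak and was not. On the side of the other stages, 19 kept peaks lay within 25 bases and 44 within 100 bases of a DMSO Pre or DMSO Diff peak.

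Of the 550 kept peaks, 478 were placed on coding transcripts, 56 on non-coding transcripts, and 16 could not be placed with both ends in exons of a transcript. On coding transcripts, 55 had their middle in the 5′ UTR (11.5%, 8.95% to 14.7%), 234 in the CDS (49.0%, 44.5% to 53.4%) and 189 in the 3′ UTR (39.5%, 35.3% to 43.99%). The 5′ UTR was over-represented. It held 7.38% of the MCE-only peaks, 4.13 percentage points less (Newcombe 95% interval of the difference 1.33 to 7.45), and 6.89% of the shared peaks, 4.62 points less (1.49 to 8.11). The CDS share was 6.36 points below the 55.3% of MCE-only peaks (-11.2 to -1.46), but its difference from the 50.5% of shared peaks, -1.58 points, had an interval of -7.05 to 3.91. For the 3′ UTR the differences were 2.23 points (-2.48 to 7.08) from MCE-only and -3.05 points (-8.38 to 2.39) from shared peaks, and neither interval left out 0. All intervals cover counting error of these lists alone, and peaks of a gene are not independent. With every list shortened to its 2824 highest scores, the 5′ UTR difference from MCE-only peaks was 3.50 points, with an interval of -0.52 to 8.08.

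**Figure D2:**
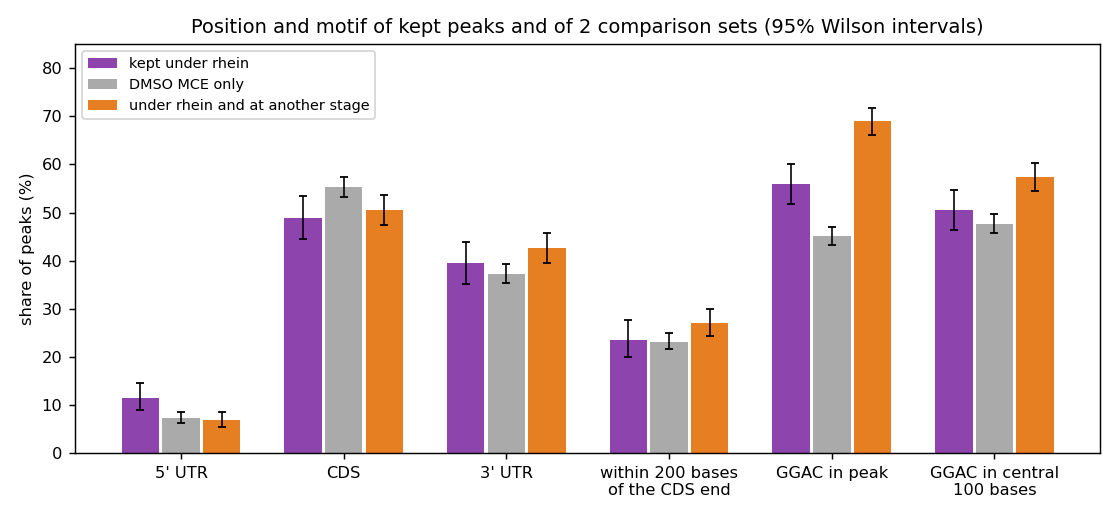
Share of peaks in percent (bars, with 95% Wilson intervals) in each transcript part, within 200 bases of the CDS end, and with GGAC, for the kept peaks and both comparison sets. Kept peaks have the highest 5′ UTR share (11.5%), and their share with GGAC (56.0%) lies between those of MCE-only (45.2%) and shared peaks (69.0%).

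The 5′ UTR peaks also stood apart in their scores under rhein. The 55 had a median score of 8.55 in DMSO MCE and 22.5 under rhein, and 46 of them (83.6%, 71.7% to 91.1%) scored higher under rhein. In the CDS the medians were 7.82 and 7.75, with 118 of 234 higher under rhein (50.4%, 44.1% to 56.8%), and in the 3′ UTR they were 7.97 and 7.94, with 90 of 189 (47.6%, 40.6% to 54.7%). The median rank was 1444 of 5128 in the DMSO MCE list and 270 of 3069 in the rhein MCE list for the 5′ UTR members, 1909 and 1656 for those in the CDS and 1798 and 1546 for those in the 3′ UTR. These scores come from the lists that chose the peaks and are given as a description. The lists differ in length and their depth is unknown, so 50% is not an expected value and the intervals are no test. The same lean was seen over the whole rhein MCE list, where 195 5′ UTR peaks had a median score of 13.8 against 7.76 in the CDS and 7.80 in the 3′ UTR, whereas the DMSO MCE list had 7.52, 7.06 and 7.18. Among the shared peaks, 35 of 65 in the 5′ UTR scored higher under rhein (53.8%, 41.9% to 65.4%), against 39.2% (34.9% to 43.7%) in the CDS and 32.1% (27.7% to 36.8%) in the 3′ UTR, so that the 5′ UTR share was the highest there too. The kept 5′ UTR peaks were rich in G and C, with a median of 72.8% against 56% in the CDS and 50% in the 3′ UTR, and the part of base composition in the scores was not tested. Of the 55, 22 (40%) began within 100 bases of the annotated transcript start, against 81 of 175 MCE-only (46.3%) and 18 of 65 shared 5′ UTR peaks (27.7%).

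The 5′ UTR members of highest rhein score were on genes of varied function. The peak of Slc35e3, a solute carrier of the nucleotide-sugar transporter family, scored 7.52 in DMSO MCE and 89.9 under rhein (rank 22), in exon 1 of 5. Ppp1r9b, which encodes the actin-binding scaffold spinophilin, had 8.15 and 70.0, and Pcbp1, which encodes a poly(C)-binding protein that acts in splicing and translation, had 14.1 and 70.0. Ptp4a2, a protein tyrosine phosphatase, had 17.1 and 68.3. These 4 were named for their rhein scores, so that high values there follow from the choice. Further 5′ UTR members included those of Fbln2, a matrix fibulin (7.45 and 47.4), Timp2, an inhibitor of metalloproteinases (5.50 and 27.1), Ctnnb1, which encodes β-catenin (8.73 and 17.2), and Cdkn2c, an inhibitor of cyclin-dependent kinases (8.90 and 15.0). The opposite order also occurred, as in Hnrnpa2b1 (11.8 in DMSO MCE and 6.56 under rhein), which encodes an RNA-binding protein described as an m6A reader.

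Around the stop codon the kept peaks followed the usual profile. Their middles lay within 200 bases of the CDS end in 113 of 478 (23.6%, 20.1% to 27.6%), against 23.2% of MCE-only peaks, a difference of 0.41 points (-3.58 to 4.75), and 27.1% of shared peaks, a difference of -3.48 points (-8.11 to 1.38). The densest bin was the 100 bases just before the end of the CDS, with 7.32% of the peaks.

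**Figure D3:**
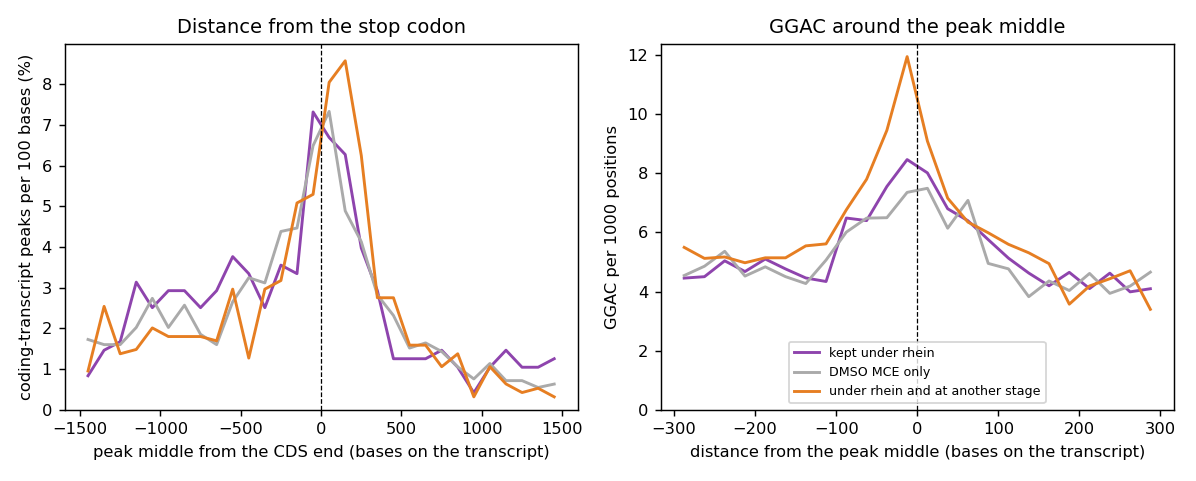
Left, share of coding-transcript peaks per 100 bases by distance of the peak middle from the CDS end. Right, GGAC per 1000 positions in 25-base bins around the peak middle, for the same 3 sets; the kept peaks reach 8.47 just before the middle and fall to 4.46 at the left edge of the plot.

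GGAC, searched on the transcript strand only, occurred in 299 of the 534 placed kept peaks (56.0%, 51.8% to 60.1%). This was 10.8 points more (6.16 to 15.4) than in MCE-only peaks, while the difference from shared peaks was -13.02 points (-18.04 to -8.00). Peak length moved with this result, since the median exonic length was 150 bases for kept, 100 for MCE-only and 225 for shared peaks. In a fixed window of 100 bases around the peak middle, GGAC was found for 50.6% of kept and 47.7% of MCE-only peaks. The difference was 2.85 points, and its interval of -1.80 to 7.48 no longer left out 0. These windows reach past the edges of shorter peaks, and the MCE-only share was 45.2% in the peaks themselves. The part of the added flanking bases in this change was not tested. The deficit against shared peaks persisted in these windows, at -6.86 points (-12.0 to -1.70), but with an adjusted p-value below 0.01 required in every list it was -5.19 points (-10.8 to 0.37). Windows of the same length elsewhere on the same transcripts held GGAC in 42.9% for the 516 kept peaks that allowed this comparison, of which 56.4% held it, and in 32.5% against 45.5% for MCE-only peaks. The wider DRACH sequence was present in 84.6% of kept, 82.0% of MCE-only and 94.3% of shared peaks. Kept peaks differed from shared peaks here by -9.70 points (-13.2 to -6.49), and from MCE-only peaks by 2.61 points (-0.99 to 5.80). GGAC density rose from 4.46 per 1000 positions about 288 bases upstream to 8.47 next to the middle of the kept peaks.

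Length and score moved with being kept. Among DMSO MCE peaks absent from the other DMSO stages, the kept share was 10.0% for peaks of at most 50 exonic bases (89 of 888) and 39.2% for those over 200 bases (151 of 385). By DMSO MCE score it was 65.4% in the top 500 (51 of 78) and 5.71% below rank 4000 (56 of 980). Both were measures of the lists that chose the peaks, and these shares are given as a description.

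The 440 genes with a kept peak held 1 such peak in 370 cases, 2 in 51 and 3 or more in 19. Of them, 239 had no peak at all in DMSO Pre or DMSO Diff, 46 had another peak in DMSO Pre only, 58 in DMSO Diff only and 97 in both. Thus 201 (45.7%, 41.1% to 50.4%) were also marked elsewhere on the transcript at another DMSO stage, against 709 of 1916 genes with MCE-only peaks (37.0%), a difference of 8.68 points (3.59 to 13.8). The gene sets overlapped by 183 genes, while the interval treats them as separate sets, so it is only a rough guide. Genes with kept peaks had more DMSO MCE peaks in the median (2 against 1), whose part in this difference was not tested. The kept peaks were spread over all autosomes and X. Chromosome 11 held most, 65 or 11.8%, close to its 10.4% of all DMSO MCE peaks.

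Irs2 on chromosome 8 held 7 kept peaks, the largest number. Its DMSO MCE list showed 12 peaks, the rhein MCE list 9, DMSO Diff 1 and DMSO Pre 0. Of the 7 kept peaks 4 were in the CDS, all on exon 1 of 2, and 3 in the 3′ UTR, and 4 held GGAC. Their DMSO MCE scores ran from 7.22 to 15.0, and the rhein scores from 5.03 to 72.8. The highest rhein score was at the first CDS peak, chr8:11007186-11007410 (7.94 in DMSO MCE), while the highest DMSO MCE score was in the 3′ UTR, chr8:10986131-10986480 (15.0 against 12.1 under rhein). The CDS peak with 3 GGAC shown above and its neighbour without GGAC lay under the same rhein peak, of score 6.67.

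Gas7, a growth-arrest gene whose product binds actin, had 4 kept peaks, all in the 3′ UTR, with DMSO MCE scores from 6.51 to 11.1 and rhein scores from 6.31 to 16.5. It was marked at all stages, with 4 peaks in DMSO Pre and 5 in DMSO Diff. The 17 genes with 3 kept peaks were Enc1, Ncor1, Vapb, Nab2, Krt15, Sash1, Midn, Vangl1, Synpo, Acsl4, Nr4a1, Fzd1, Socs3, Ptn, Thbd, Rbm15b and Ccdc85b. Of these, Enc1 (an actin-binding kelch protein), Fzd1 (a Wnt receptor), Vangl1 (a planar polarity protein), Krt15 (a keratin) and Rbm15b had no peak in DMSO Pre or DMSO Diff.

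Nr4a1, an orphan nuclear receptor that growth stimuli induce rapidly, had kept peaks with DMSO MCE scores of 9.83 in the 3′ UTR, 9.53 at the start of the CDS and 5.31 in the middle of the CDS. Under rhein they had scores of 9.38, 11.4 and 8.53, and the rhein list held 7 peaks on the gene against 4 in DMSO MCE. Socs3, a feedback inhibitor of cytokine signalling, had its 3 kept peaks side by side in the 3′ UTR, with DMSO MCE scores of 6.86 to 7.13 and rhein scores of 9.38 and 11.9. They lay beyond a stronger 3′ UTR peak that DMSO Diff shared. Ptn, which encodes the growth factor pleiotrophin, had the higher scores in DMSO MCE, 20.9 to 47.5, over rhein scores of 12.1 to 13.2. Its peak of 23.4 shared 25 bases with its rhein peak, and another kept Ptn peak shared no exonic base. No rhein peak placed on the Ptn transcript lay over the peak of 47.5. A rhein peak of 24.1 in the 3′ UTR met no kept peak. Nab2, a corepressor of EGR transcription factors, had kept peaks in the 5′ UTR and CDS. Its 5′ UTR peak scored 8.73 in DMSO MCE and overlapped a rhein peak of 27.03. That rhein peak was not among the 3 placed on Nab2. A CDS peak of Nab2 at 7.99 overlapped a kept peak of 8.35 on the opposite-strand gene Gm16229.

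**Figure D4:**
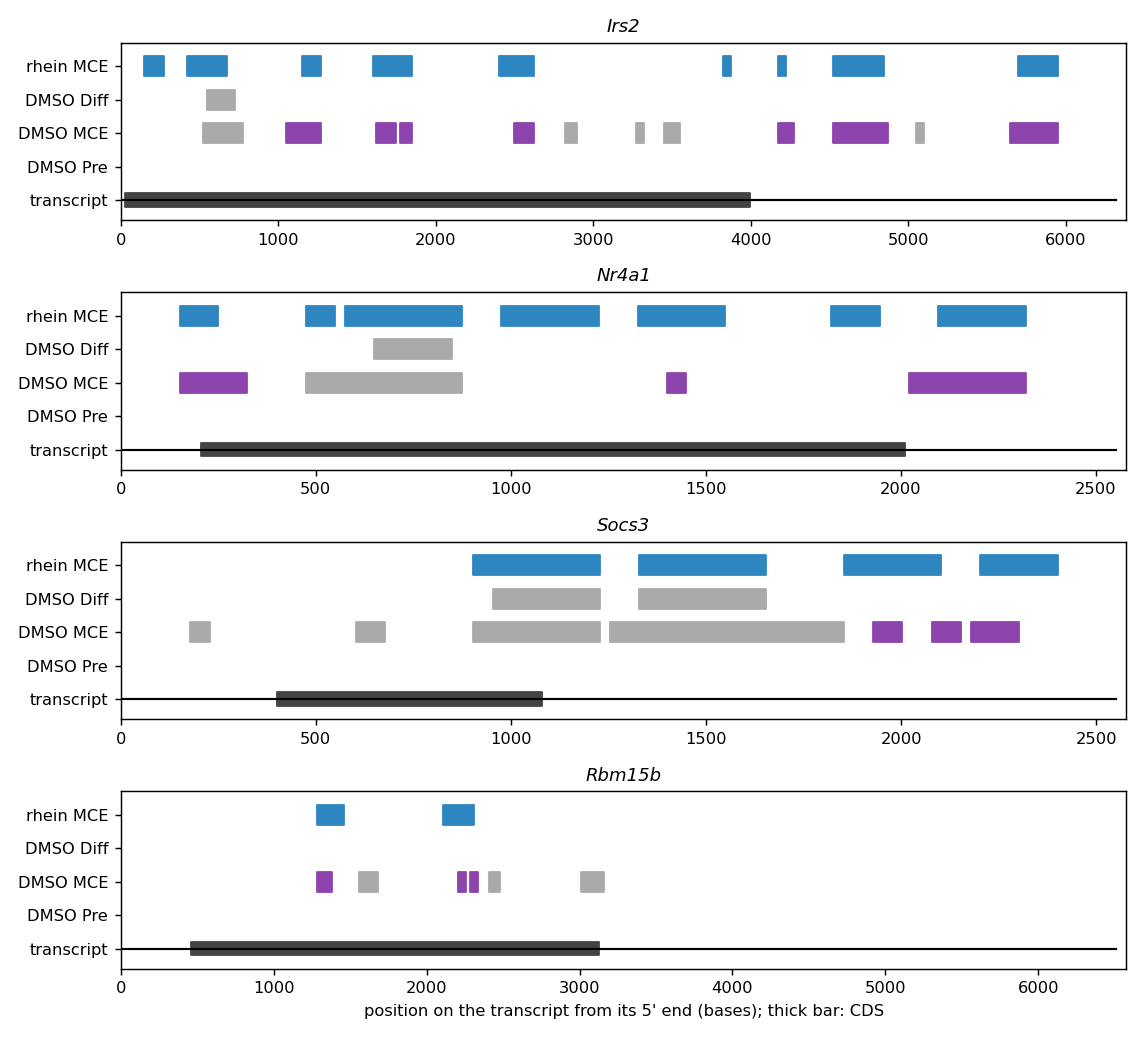
Peaks of the DMSO Pre, DMSO MCE, DMSO Diff and rhein MCE lists along the transcripts of Irs2, Nr4a1, Socs3 and Rbm15b, in bases from the 5′ end, with the CDS as a thick bar. Purple marks the kept peaks, grey the other DMSO peaks and blue the rhein peaks; Irs2 has 7 kept peaks and each of the other genes 3, none under a DMSO Pre or DMSO Diff peak.

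Among the 10 kept peaks of highest DMSO MCE score were those of Gm28154 (61.0), Gnas (55.8), Ptn (47.5), Anp32b (42.0), Sept7 (38.3), Plec (33.0), Hnrnpab (32.6), Cavin1 (31.3) and Nfil3 (27.8). Gnas encodes the stimulatory G protein subunit that couples hormone receptors to cAMP, and its peak stood high in both lists (rank 34 in DMSO MCE and rank 9 under rhein, with a score of 141). It shared only 100 bases with the rhein peak, and its span, introns included, overlapped a peak on the opposite strand. Plec, a cytoskeletal linker (36.1 under rhein), Cavin1, a coat protein of caveolae (32.0), and Hnrnpab, an RNA-binding protein (27.04), had rhein scores close to their DMSO MCE scores. Nfil3, a bZIP transcription factor, fell in score to 7.75, Anp32b, a histone chaperone, to 12.0, and Gm28154 to 6.88. Gm28154 is annotated as antisense to Pi15, and the span of its peak, introns included, overlapped 6 Pi15 peaks on the opposite strand.

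Zfp36l2, which encodes an RNA-binding protein that promotes decay of AU-rich messages, had the highest rhein score of all kept peaks, 189.7 (rank 4), over a 50-base CDS peak with a score of 8.49 in DMSO MCE (rank 1464). The other kept peaks among the 10 highest under rhein were those of Gnas, Slc35e3, Eif3b (82.6, a translation initiation factor subunit), an unplaced peak near Eif5a (74.8), Irs2 (72.8), Ppp1r9b, Pcbp1, Ybx1 (68.3, the cold-shock protein YB-1) and Ptp4a2. Only Gnas was among the 10 highest in both lists.

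Kept peaks were next counted in 15 lists of genes by function, given as genes with a kept peak of the genes with any DMSO MCE peak, beside 14.8% over all genes. The immediate-early and AP-1 list had the largest share, 11 of 19 genes (57.9%), with 15 of its 56 DMSO MCE peaks kept (26.8%, against 10.7% of all DMSO MCE peaks). These were the AP-1 members and partners Jund, Fosl1, Fosl2, Atf4 and Mafg, the zinc finger factor Egr1, the nuclear receptor Nr4a1, the MAP kinase phosphatases Dusp4 and Dusp6, and Ier5 and Zfp36l2. Jund had a CDS peak of 10.9 in DMSO MCE and 33.3 under rhein. Atf4, the effector of the integrated stress response, had a CDS peak of 9.61 and 6.42. Dusp4 had a 3′ UTR peak of 8.17 and 13.2, and Egr1 a 3′ UTR peak of 8.77 and 13.4. The median score of the 15 peaks was 7.78 in DMSO MCE and 9.38 under rhein. The Fosl1 peak (7.61) overlapped a kept peak of Ccdc85b on the opposite strand (8.01), so that its gene is uncertain.

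In the extracellular matrix list 9 of 29 genes (31.0%) held a kept peak, but 10 of 91 peaks were kept (10.99%), near the 10.7% of all DMSO MCE peaks. Fbln5, a fibulin needed for elastic fibres, had 13.8 in DMSO MCE and 12.9 under rhein, and Tnxb, a tenascin, had 13.7 and 10.1 at its higher peak and 10.8 and 14.2 at the other. Chpf, a chondroitin polymerizing factor, had 12.6 and 5.81, and Hspg2, which encodes perlecan, had 8.29 and 16.8. Loxl1, Lamc1, Timp1, Timp2 and Fbln2 completed the group. In the list of Wnt, TGF-β, BMP, Notch and Hippo genes 9 of 34 (26.5%) held a kept peak, with 12 of 73 peaks kept (16.4%). They included the receptors Notch2 (9.92 and 6.80) and Tgfbr2 (9.63 and 7.18) and the signal transducers Smad1 (9.38 and 6.29) and Smad3, whose CDS peaks ran opposite ways (8.13 and 6.60 at the higher, 6.86 and 8.76 at the other), together with Fzd1, Ctnnb1, Bcl9, Gli2 and Vgll4.

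In the list of RNA-binding and splicing factors 10 of 41 genes (24.4%) held a kept peak, with 11 of 83 peaks kept (13.3%). Hnrnpd, which encodes the AU-rich element binding protein AUF1, had a CDS peak of 13.1 in DMSO MCE and 34.4 under rhein, Hnrnpu a 3′ UTR peak of 17.96 and 5.80, Hnrnpl 12.2 and 11.3, and the splicing factor Srsf5 9.56 and 6.55. Of the m6A machinery, 3 of 13 genes (23.1%) did, with 5 of 35 peaks kept (14.3%), and they cover a writer adaptor, an eraser and a reader. Rbm15b had 3 CDS peaks of 6.46 to 6.95 in DMSO MCE over rhein peaks of 8.03 and 15.0. Alkbh5 had a CDS peak of 9.65 and 15.7, and Hnrnpa2b1 the 5′ UTR peak given above. Fto, the known target of rhein, was not among the genes with a kept peak. Only 14.8% of all genes with a DMSO MCE peak held one, so the absence of a single gene says little. In the list of translation factors and cytoplasmic ribosomal proteins, 3 of 9 genes (33.3%), Eif3a, Eif3b and Eif5, held a kept peak, with 3 of 24 peaks kept.

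The cell cycle and DNA replication list had kept peaks in 4 of 16 genes (25%), with 7 of 40 peaks kept (17.5%). They were Mcm3, a subunit of the replicative helicase (10.4 in DMSO MCE and 7.40 under rhein), Cdkn2c, Top2a, a DNA topoisomerase (8.21 and 23.5), and Mki67, which encodes the proliferation marker Ki-67 (7.70 and 13.3), with the values of the higher peak where a gene had a pair. The mitosis list had 2 of 15 (13.3%), with 3 of 30 peaks kept (10%). These genes were Incenp of the chromosomal passenger complex, with peaks of 9.27 and 7.82 in DMSO MCE that had 6.67 and 9.36 under rhein, and Smc1a of cohesin (9.86 and 8.49). The adipogenic and lipid list had 4 of 19 (21.1%), with 6 of 42 peaks kept (14.3%). Besides Cebpb, these were Hmgcs1, a sterol synthesis enzyme (8.88 and 7.13), Acly, which makes cytosolic acetyl-CoA (6.25 and 8.01), and Ncor1, a corepressor of nuclear receptors. The 3 kept peaks of Ncor1, of 5.93 to 5.97, overlapped the same rhein peak of 5.518. The longest of them contained the other 2 and the rhein peak, so they are nested calls that count as 3 of the 6 kept peaks. The Hmgcs1 peak also had a kept peak opposite to it, on Gm48342. Pparg and Cebpa, the later regulators of the adipocyte program, held no kept peak, like most genes of the list.

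Shares at or under that of all genes were found in the remaining lists. Chromatin modifiers had a kept peak in 4 of 48 genes (8.33%), with 5 of 109 peaks kept. They were Brd2, a BET reader of acetylated histones (16.0 and 14.6), Ezh2, the H3K27 methyltransferase (11.8 and 9.78), and the remodellers Atrx (8.20 and 11.7 at its higher peak) and Arid1a (6.46 and 6.96). Cytoskeleton and adhesion genes had 5 of 39 (12.8%), with 5 of 124 peaks kept, and these were Plec, Ahnak (27.7 and 26.3), Tpm4 (9.99, with a rhein peak of 45.9 that shared no exonic base with it), Actn1 and Myo5a. Ubiquitin and protein turnover genes had 2 of 26 (7.69%), the ligase scaffold Cul3 and its substrate adaptor Keap1 (9.15 and 8.55). The list of insulin, PI3K, mTOR and autophagy genes had 1 of 17 (5.88%), Irs2, whose 7 peaks were 7 of the 34 on that list. Of the fibroblast and preadipocyte markers 1 of 7 (14.3%) held kept peaks, Prrx1, a mesenchymal homeobox factor (12.4 in DMSO MCE at its higher peak). No gene of the macrophage, endothelial and muscle marker list had a DMSO MCE peak, though a peak list holds no expression level.

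**Figure D5:**
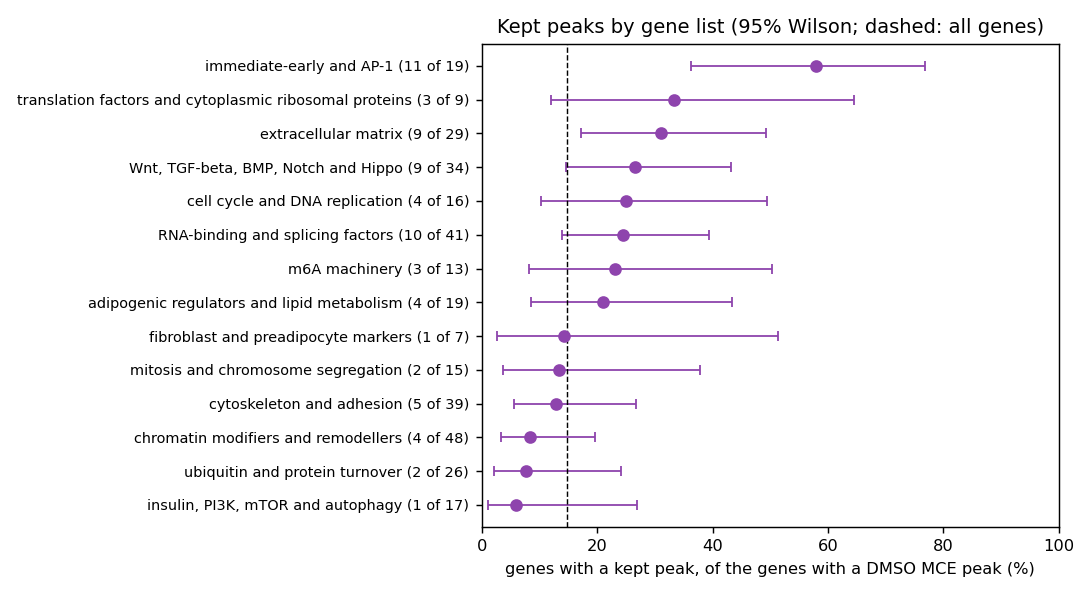
Percentage of genes with a kept peak among the genes with a DMSO MCE peak, for the 14 lists with at least 1 such gene, as points with 95% Wilson intervals; the dashed line marks 14.8% over all genes. The immediate-early and AP-1 list (11 of 19) is highest and the insulin, PI3K, mTOR and autophagy list (1 of 17) is lowest.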

How the data were processed

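MeRIP-seq libraries of 3T3-L1 cells were made by the authors for 5 conditions, 1 IP and 1 input each. Per the methods and the submitters' processing notes, the authors trimmed reads with Trim Galore (0.6.5), aligned them to mm10 (GRCm38) with HISAT2 (2.1.0), and discarded duplicates with Picard (2.23.5) and poorly mapped reads with SAMtools (1.9). Peak calling used exomePeak2 with its defaults, and ChIPseeker (1.26) supplied the annotation. Each deposited list gives a span, strand, gene and 1 value per peak. The deposited value was used as a score: its header names a log2 fold change, yet values ran from 4.32 to 127 in DMSO MCE, and the lowest gives 0.0500 there, 0.0502 in rhein MCE, 0.0520 in DMSO Diff and 0.0549 in DMSO Pre if the scale is the negative log2 of adjusted p-values. Which libraries entered each call, and their depth, are not given in the sources used here.

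Peaks were placed on GENCODE M21 transcripts of the same strand where exons held both ends, with coding and then longer transcripts preferred, which succeeded for 97.0% of DMSO MCE peaks. The listed symbol differed from the gene found for 129 of the 534 placed members and was not used. The caller works in steps of 25 bases, and exonic length was divisible by 25 for 98.3% of placed DMSO MCE peaks, which served to check build and coordinates. The 365 sequences extracted from transcripts were identical to the RefSeq GRCm38.p6 genome. Shares have 95% Wilson intervals and differences have Newcombe intervals, computed in Python (3.11.15) with pandas (2.3.3). The overlap rule was tested on simulated peaks. Those peaks were drawn from annotated exons, so their placement on a transcript was set in advance, and their transcript part was not checked. A difference was called where its interval left out 0.

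The members and gene lists were chosen with earlier results of these data known. Genes were named by these rules: the 10 highest scores in each list, every gene with 3 or more members, list genes with up to the 5 highest scores, and the members next to the overlap threshold with 5 on each side. A gene that met these rules is not reported here. The 5′ UTR scores, the opposite-strand peaks, the distance from the transcript start, the kept share by length and rank, and the 4 genes drawn as maps were chosen after their values were seen. Alternatives were the exonic overlap, a share of at least 50% of the span, a score past an adjusted p-value of 0.01 in every list, the rhein Diff list, lists of equal length, the listed part, and narrower windows for the stop codon and the motif.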

Additional observations from a re-analysis of the deposited data

How the results depend on the processing

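Without replicates or read numbers, a peak missing from a list may be a weak call, and the intervals cover counting error only. No paired analysis was possible because each condition had 1 IP library and the lists carry no replicate numbers. Of 75 recomputed differences, 67 kept both their direction and whether their interval held 0. With an adjusted p-value below 0.01 in every list, the GGAC difference from shared peaks shrank to -5.19 points (-10.8 to 0.37), the stop codon difference from shared peaks became -5.48 points (-10.7 to -0.05), and that from MCE-only peaks turned to -1.71 points. With lists of equal length, the 5′ UTR difference from MCE-only peaks was 3.50 points (-0.52 to 8.08). In 100-base windows, which reach past the edges of shorter peaks, the GGAC difference from MCE-only peaks was 2.85 points. That of DRACH turned to -2.90 points. From whole peaks to windows, the DRACH share went from 82.0% to 88.5% for MCE-only and from 84.6% to 85.6% for kept peaks. With 50% of the span shared, the DRACH difference from MCE-only peaks was -0.22 points. With a window of 100 bases around the CDS end, the stop codon difference from shared peaks was 0.56 points. The cause of the changes not set by construction was not tested. The number of kept peaks ranged from 379 with equal lists to 553 with exonic overlap.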

Other observations

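The 56 kept peaks on non-coding transcripts included peaks on genes that are not protein-coding: 14 on genes annotated as antisense, 5 on processed pseudogenes, 5 on small nuclear RNA genes, 4 on processed transcripts, 2 on genes of the TEC class, and 1 each on an rRNA, a miRNA and a lincRNA gene. Many of the antisense peaks faced a peak of their partner, as with Prss23os (5.99) opposite Prss23 (5.99) and Gm48342 (7.89) opposite Hmgcs1 (8.88). The peak on the ribosomal RNA gene n-R5s110 had a score of 11.7 in DMSO MCE and 35.3 under rhein. Genes of this kind have near-identical copies, so the source of their reads is uncertain.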
